A study of Mus musculus with 6 samples.

Results

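Endothelial cells line blood and lymphatic vessels. The 40 genes described here were chosen by symbol as genes of this lineage, and they fall into general (pan-endothelial), tip cell, lymphatic and sinusoidal genes. Of these 40, 35 were found among the 14681 genes of the authors' deposited table, and Mmrn2, Calcrl, Esm1, Clec4g and Fcgr2b are not analysed here. The data are RNA sequencing of dorsal pancreas from C57BL/6 mouse embryos at embryonic day 18.5, with 3 knockout samples (Dpy30∆P in the labels, a deletion of Dpy30) and 3 control samples. Dpy30 is a core subunit of the Trithorax group complexes that methylate H3K4, and the series asks what these complexes do in the developing pancreas. The name of the deposited table pairs a Pdx1 knockout with this stage, where the labels name Dpy30; Pdx1 is a pancreatic transcription factor gene whose promoter is often used to drive Cre, and no source used here says what is meant. The labels state neither the driver of the deletion nor the genotype of the controls, and they do not say whether endothelial cells carry the deletion.

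The endothelium of the pancreas is a dense capillary bed of fenestrated vessels, whose thin pores let hormones and nutrients pass. Growth of such beds depends on vascular endothelial growth factor, which binds receptor kinases on endothelial cells, and endothelial identity is held by transcription factors of the ETS and SOXF families. Prox1 and Flt4 are taken here as the lymphatic genes, without a check that their reads came from lymphatic endothelium. Sinusoidal endothelium, best known from liver, spleen and lymph node, is leaky and scavenges material from blood through receptors such as stabilins.

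The deposited table gives 1 mean of normalized counts over all libraries and 1 log2 fold change per gene, so no value can be given for a single sample or for a group, and the depth of each library is unknown. The numerator of the fold changes is not named; positive values are read here as higher in knockout, the common convention. All directions would turn round under the other convention. Dpy30 could not serve as a check of the labels, with a mean normalized count of 29.4 and a reconstructed log2 fold change of 0.51 (95% interval -2.77 to 3.79). Nor could Pdx1, with a mean normalized count of 52.6 and a value of -0.89 (interval -3.06 to 1.28). The tissue label held for pancreas: the acinar enzyme gene Cpa1 had a mean normalized count of 15390 and the colipase gene Clps one of 8918. These means pool groups that differed. The reconstructed log2 fold changes were -2.6 ± 0.27 for Cpa1 and -3.19 ± 0.27 for Clps (SE), and the authors' DESeq2 test called both as lower. The deposited fold changes are smaller beside their errors than the p-values imply, the mark of a shrinkage towards 0 that no source used here states, so sizes are given as reconstructed, unshrunken log2 fold changes with their SE, and only for genes whose reconstructed z matched that of the deposited p to within 0.1. These sizes rest on an assumed form of that shrinkage and on its scale, inferred as 0.3102 from the deposited p. Mean normalized counts, p and adjusted p are everywhere those of the authors' deposited table. Each p rests only on these 6 samples and on the authors' model of their spread. In bulk tissue, fewer endothelial cells and less RNA per cell cannot be told apart.

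Of the 35 endothelial genes, 1 changed: Stab2, the sinusoidal scavenger receptor stabilin-2, was higher at an adjusted p under 0.05 in the authors' DESeq2 test. That test called 0.743% of 12108 genes, 0.264% as higher and 0.479% as lower. The other 34 endothelial genes were called in neither direction, and their smallest adjusted p was 0.923. Without adjustment, p was under 0.05 for 1 endothelial gene, again Stab2, and for 5.39% of 14386 genes. The sign was positive in 23 of the 35 endothelial genes (65.7%) and in 54.8% of all genes with a p. The median reconstructed log2 fold change was 0.26 over the 31 endothelial genes with a determined size and 0.05 over all 12135 such genes. With a prior scale 20% larger the endothelial median was 0.03, so its size rests on the inferred scale.

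**Figure D1:**
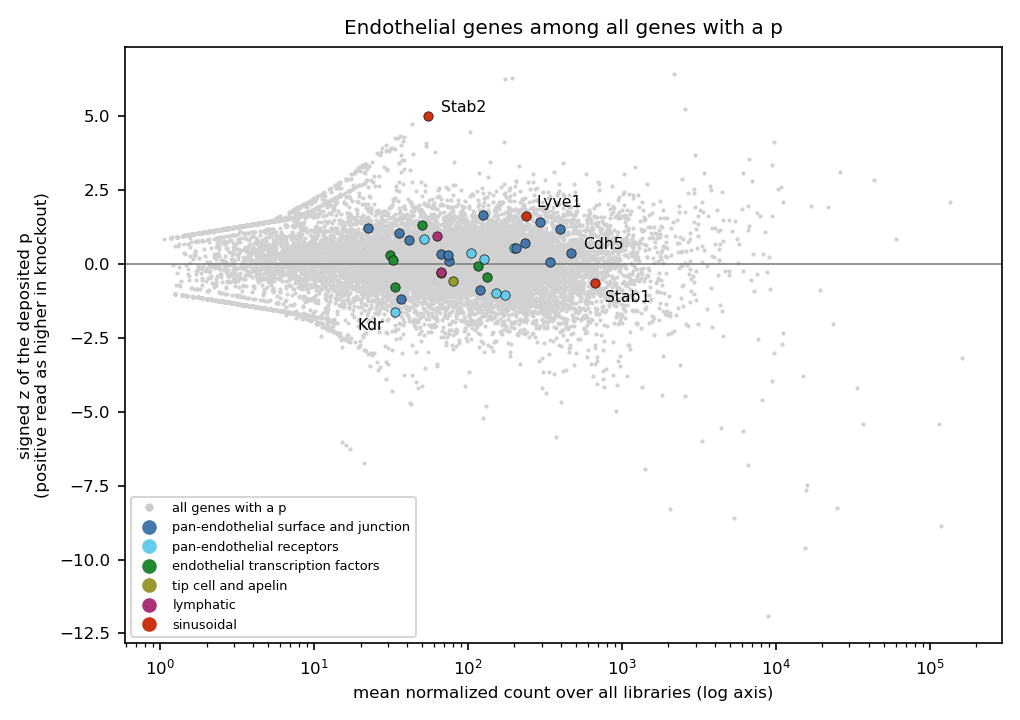
Signed z of the deposited p (y axis, positive read as higher in knockout) against the mean normalized count over all libraries (x axis, log scale) for all 14386 genes with a p in grey and the 35 endothelial genes in colour by subgroup. Stab2 stands at a z of 5.01, while the other 34 endothelial genes lie within the grey cloud, with Clec14a highest at 1.65 and Kdr lowest at -1.61.

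Stab2 is a very large receptor that sinusoidal endothelial cells use to take up hyaluronan and other ligands from blood (chromosome 10, 86841198 to 87008025, minus strand, GRCm38; Entrez gene 192188). It had a mean normalized count of 55.1 over the 6 libraries. Its log2 fold change in the authors' deposited table was 9.53 ± 3.25 (the deposited error, read as a posterior SD), with p = 5.51e-07 and an adjusted p of 0.000257. This was the largest deposited log2 fold change of the table, and by adjusted p the gene ranked 26. Among the 8621 genes with a p and a mean count under 100, Stab2 had the highest signed z. That rank does not cover genes of negative sign. Of these, 1810010D01Rik, also scarce, had a z larger in size than that of Stab2.

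The size of the Stab2 difference is not determined. Its reconstructed z missed that of the deposited p by 1.14, so no reconstructed size is given. A mean of 55.1 over 6 libraries limits the mean of either group to at most 110.2 normalized counts. The deposited value equals a 742-fold difference, which would leave the control libraries 0.445 normalized counts in all, less than 1 read. That fold is therefore an output of the model and not a ratio of 2 measured levels. The direction and the p do not depend on this reconstruction. Whether all 3 knockout libraries were high cannot be read from the table, because it gives no value per library.

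Genes beside Stab2 on chromosome 10 did not pass. Nt5dc3, whose annotated end lies 2809 bases from that of Stab2 on the opposite strand, had a mean normalized count of 190.7 and a reconstructed log2 fold change of 0.57 ± 0.73 (SE; adjusted p = 1.00 in the authors' DESeq2 test). Ttc41, further off, had a mean normalized count of 12.4 and an unadjusted p of 0.914.

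The nearest relative of Stab2 is Stab1, the scavenger receptor stabilin-1 (chromosome 14, 31139013 to 31168641, minus strand; Entrez gene 192187). Its mean normalized count was 664.1. Its reconstructed log2 fold change was -0.32 ± 0.51 (SE), with a 95% interval from -1.32 to 0.68; the authors' unadjusted p was 0.527. At the inferred prior scale a doubling of Stab1 in knockout lay outside its interval and a halving inside it; with a scale 20% larger the value was -0.13. Stab1 is made by macrophages as well as by sinusoidal endothelium. Lyve1, the hyaluronan receptor of lymphatic and sinusoidal endothelium and of some macrophages (chromosome 7, 110850607 to 110863239, minus strand), had a mean normalized count of 238.7 and a reconstructed value of 0.94 ± 0.57 (SE; interval -0.18 to 2.06; adjusted p = 0.924). The Lyve1 value was 1.93 with a prior scale 20% smaller and 0.51 with one 20% larger. Of the 3 sinusoidal genes measured, 1 was called, Lyve1 leaned the same way without passing, and Stab1 had the opposite sign. The difference between Stab2 and Stab1 was not tested, since the table holds no values per library.

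Promoter sequence is shown for the stabilin pair, because 1 of these paralogs was called and the other was not. Both stretches come from RefSeq's GRCm38.p6 annotation, run 5′ to 3′ upstream of the gene start, and carry the ETS core letters GGAA or the reverse complement TTCC in capitals. The Stab2 stretch (chr10:87008026-87008192, minus strand, 167 bases) was shortened to the bases upstream of both annotated starts and holds 2 such matches, and the Stab1 stretch (chr14:31168642-31168891, minus strand, 250 bases) holds 6. Over full windows of 250 bases both genes have 6 matches, but part of the Stab2 window lies inside the gene span given above. The full windows are therefore not a comparison of upstream sequence alone.
Stab2: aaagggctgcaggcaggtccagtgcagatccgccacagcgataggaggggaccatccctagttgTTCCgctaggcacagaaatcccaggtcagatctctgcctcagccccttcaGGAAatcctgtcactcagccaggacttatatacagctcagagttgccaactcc
Stab1: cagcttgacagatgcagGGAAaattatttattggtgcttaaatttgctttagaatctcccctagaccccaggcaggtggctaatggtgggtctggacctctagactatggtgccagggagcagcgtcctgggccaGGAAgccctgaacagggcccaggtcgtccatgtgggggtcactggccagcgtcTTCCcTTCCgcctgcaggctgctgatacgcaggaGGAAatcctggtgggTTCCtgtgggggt

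The letters GGAA were searched on both strands, and 93.4% of 32851 RefSeq upstream windows of 250 bases hold a match, as do 24 of the 26 upstream windows (92.3%) of the 21 endothelial genes that matched the promoter table. The longer letters AGGAAG (reverse complement CTTCCT), which contain GGAA, were found in 14 of these 26 windows, or 53.8%, and in 29.5% of all windows. The SOX letters ACAAT (reverse complement ATTGT) were found in 9 of the 26, or 34.6%, and in 27.7% of all windows. The full 250-base windows of Stab2 and Stab1 each hold 1 AGGAAG match and no ACAAT match. The AGGAAG match of Stab2 lies outside its printed stretch. These matches describe letters and not binding.

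Lymphatic genes were measured with little precision. Flt4, the receptor for the lymphatic growth factor VEGF-C (chromosome 11, 49609263 to 49652739, plus strand), had a mean normalized count of 63.2 and a reconstructed log2 fold change of 1.61 ± 1.64 (SE; interval -1.60 to 4.83). Prox1, the transcription factor that specifies lymphatic endothelium and is also used by pancreatic and hepatic epithelium (chromosome 1, 190118035 to 190170714, minus strand), had a mean normalized count of 66.9 and a value of -0.88 ± 3.59 (SE). The interval for Prox1 ran from -7.92 to 6.17, so large changes in either direction could not be detected. With a prior scale 20% larger, which returns the deposited p of all genes less closely, Flt4 was at 0.09 and Prox1 at -0.01. Taken from the p and the shrunken value, Flt4 was at 1.51 and Prox1 at -1.16. Neither size is firm. The 12 other lymphatic genes with a p had 7 positive and 5 negative signs, with none called and none with a raw p under 0.05 in the DESeq2 results. Gata2 (unadjusted p = 0.118; size not determined) and Ccbe1, a matrix protein that activates VEGF-C (0.83 ± 0.64, SE), had the smallest p of these.

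**Figure D2:**
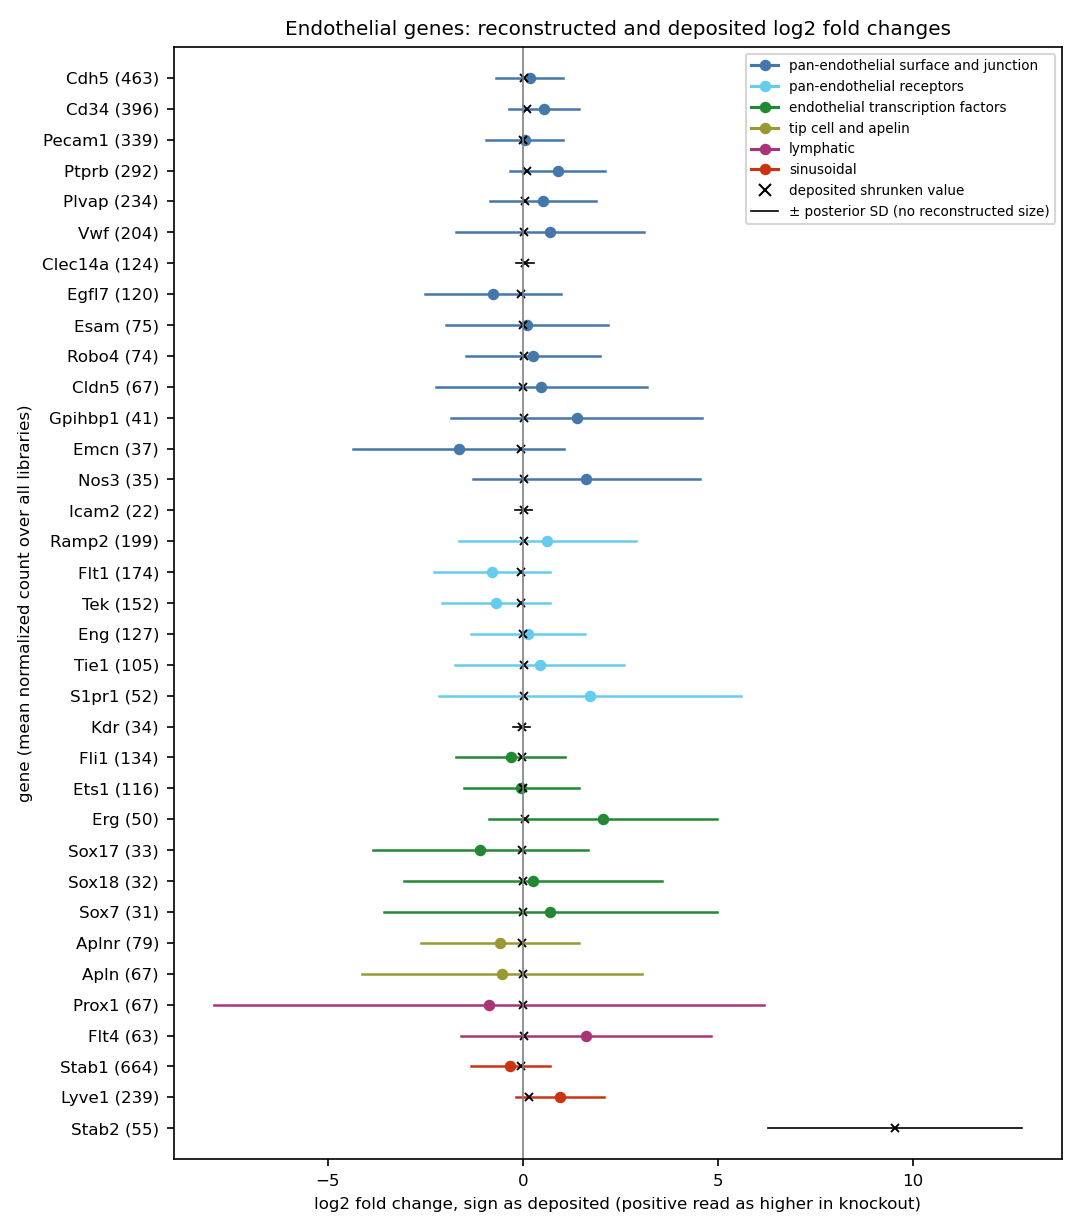
Log2 fold change (x axis, deposited sign, positive read as higher in knockout) of the 35 endothelial genes, grouped by subgroup and ordered by mean normalized count (in brackets). Circles with lines are reconstructed values with 95% intervals, crosses are the authors' deposited shrunken values, and black lines give ± the posterior SD of the 4 genes without a reconstructed size; Stab2 lies at 9.53 and every other deposited cross lies close to 0.

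No surface or junction gene was called. Of 15 measured, 13 had a positive sign (86.7%, against 54.8% of all genes with a p), none reached a raw p under 0.05, and the median reconstructed value was 0.47 over 13 genes. That median was 0.07 with a prior scale 20% larger, and 0.07 relative to mesenchyme genes. Cdh5, the VE-cadherin of endothelial junctions, had the smallest SE of the 31 endothelial genes with a determined size: its mean normalized count was 463.3 and its log2 fold change 0.17 ± 0.44 (SE; interval -0.69 to 1.02). Pecam1, the adhesion molecule CD31, had a mean normalized count of 338.8 and a value of 0.04 ± 0.51 (SE; interval -0.95 to 1.04). At the inferred prior scale these intervals exclude a halving of either gene in knockout and reach just past a doubling.

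Cd34, a sialomucin of capillary endothelium and of progenitor cells, had a mean normalized count of 395.8 and a log2 fold change of 0.54 ± 0.45 (SE; unadjusted p = 0.236). Ptprb, the phosphatase VE-PTP that dampens Tek, had a mean normalized count of 291.8 and a value of 0.89 ± 0.62 (SE; unadjusted p = 0.156). Plvap, which forms the diaphragms of fenestrae, had a mean normalized count of 234.3 and a value of 0.51 ± 0.70 (SE), and Vwf, the blood-clotting von Willebrand factor, one of 203.7 and 0.69 ± 1.24 (SE). Clec14a, an endothelial lectin, had the smallest unadjusted p after Stab2, 0.0981, and its size was not determined. The negative signs were those of Egfl7, a secreted vessel-guidance protein (-0.77 ± 0.89, SE), and Emcn, the mucin endomucin of capillaries and veins (-1.65 ± 1.38, SE). Esam, Robo4, Cldn5, Gpihbp1 and Nos3 had reconstructed values from 0.11 to 1.62 with SEs from 0.87 to 1.64, and Icam2 had no determined size.

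Growth factor receptors were split. Of 7 measured receptor genes, 4 had a positive and 3 a negative sign, and none was called or had an unadjusted p under 0.05. The negative ones were Flt1, the VEGF receptor that acts largely as a decoy (-0.80 ± 0.76, SE), Tek, the angiopoietin receptor TIE2 (-0.68 ± 0.71, SE), and Kdr, the main signalling VEGF receptor (unadjusted p = 0.107; size not determined). Flt1 and Tek had mean normalized counts of 174.1 and 152.5, and the upper ends of their intervals, 0.69 and 0.70, excluded a doubling in knockout. Eng, a BMP co-receptor, was at 0.13 ± 0.75 (SE), Tie1, an orphan relative of Tek, at 0.43 ± 1.11, Ramp2, the partner of the adrenomedullin receptor, at 0.63 ± 1.16, and the sphingosine receptor gene S1pr1 at 1.72 ± 1.98.

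Transcription factors had low counts and wide errors. Of 6, 3 had a positive sign and 3 a negative one, with none called and none at a raw p under 0.05. The ETS factor genes Fli1 and Ets1, also active in blood cells, had mean normalized counts of 133.5 and 115.9 and values of -0.31 ± 0.71 and -0.04 ± 0.76 (SE). Erg, the most endothelium-restricted of these ETS factors, was at 2.06 ± 1.49 (SE; interval -0.86 to 4.97) with a mean normalized count of 50.1. The SOXF genes Sox7, Sox17 and Sox18 had mean normalized counts of 31.1, 33.3 and 32.4. Their reconstructed values were 0.69 ± 2.18, -1.09 ± 1.40 and 0.26 ± 1.68 (SE). Both tip cell genes measured had a negative sign and no call: the peptide gene Apln was at -0.54 ± 1.83 (SE) and its receptor Aplnr at -0.58 ± 1.03 (SE).

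All 31 intervals of determined endothelial genes included 0. Of these, 7 excluded a halving in knockout, 4 excluded a doubling, 0 excluded both, and 20 reached past both. Among the 8 genes with a mean count over 200, 7 had a positive sign and the median was 0.52, with a median SE of 0.54. The 8 genes with a mean count between 100 and 200 had 3 positive signs and a median of -0.18. The median SE over all 31 was 1.06, close to the 1.08 over all genes with a determined size. It was 0.32 for genes of the whole table with a mean count over 1000. The absence of calls among pan-endothelial genes therefore does not show that their levels were alike in knockout and control.

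Levels scaled by transcript length differed widely among endothelial genes. Each level is the mean normalized count over all libraries divided by the length in kb of the principal coding transcript in GENCODE M21, and it has no error because the table gives 1 mean. Ramp2 was highest at 168.9 per kb, followed by Cd34 at 161.3, Plvap at 117.9, Cdh5 at 116.0 and Pecam1 at 103.2. Stab1 and Lyve1, at 83.0 and 82.5 per kb, stood close to these pan-endothelial genes, while Stab2 at 6.70 per kb was the second lowest of the 35. The Stab2 mean pools groups that differed, so that rank need not hold in either group. The lymphatic genes Flt4 and Prox1 had 10.1 and 8.46 per kb. Kdr was the lowest at 5.68 per kb, below Flt1 at 25.2 per kb. The order of neighbours so close cannot be told without an error.

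**Figure D3:**
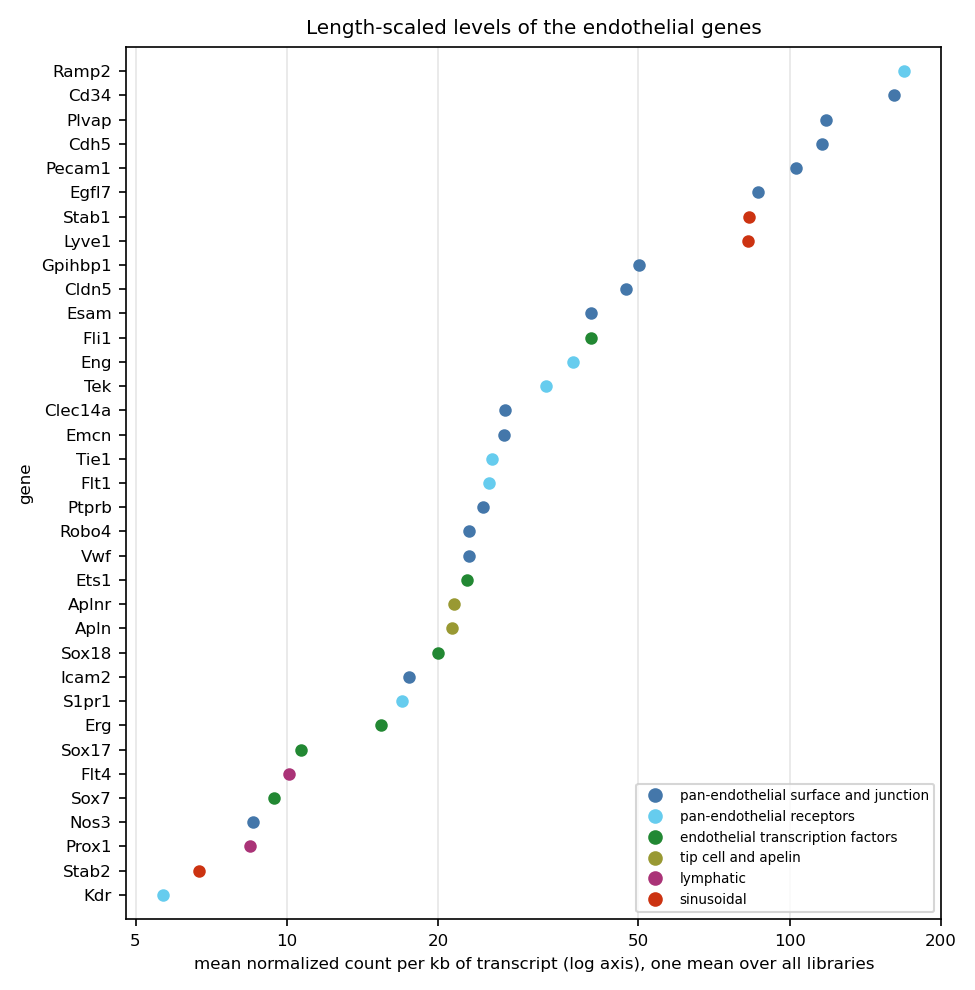
Mean normalized count per kb of transcript (x axis, log scale, 1 mean over all libraries) of the 35 endothelial genes, coloured by subgroup. Stab1 and Lyve1 lie among the pan-endothelial genes at about 83 per kb, whereas Stab2 and Kdr lie lowest at 6.70 and 5.68 per kb. The Stab2 level pools knockout and control samples that differed.

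Other genes of the vascular lists gave few small p-values and no call. Of 33 further pan-endothelial genes with a p, 24 had a positive sign, 0 were called, and raw p was under 0.05 for 1 with a positive and 1 with a negative sign (2.70% of all genes with a p in each direction). Podxl, a podocalyxin of endothelial, mesothelial and epithelial surfaces, was at 0.75 ± 0.33 (SE; unadjusted p = 0.0256), and Gpr182, a receptor of sinusoidal and lymphatic endothelium, had a negative sign (unadjusted p = 0.0270) at a mean normalized count of 12.4. Of the 14 genes of VEGF and angiopoietin signalling, 7 had a positive and 7 a negative sign; the ligand gene Vegfa had the smallest p, at -0.87 ± 0.43 (SE; unadjusted p = 0.0403, adjusted p = 0.743), followed by Ccbe1. Arterial Notch and ephrin genes had 10 positive signs of 19, with Gja5, an arterial connexin, at an unadjusted p of 0.0295 and Cxcl12, a chemokine, at 1.03 ± 0.58 (SE). In the list of BMP9 and ALK1 signalling 4 of 10 signs were positive; Gdf2, which encodes BMP9, had a mean normalized count of 2.93 and an unadjusted p of 0.217, and Smad7 was at -0.62 ± 0.60 (SE). Vascular basement membrane genes had 8 positive signs of 11, with Lama5, a laminin chain shared with epithelium, at -1.09 ± 0.48 (SE; unadjusted p = 0.0222) and Nid2 at 0.59 ± 0.34 (SE).

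Genes of liver sinusoids and of hepatocytes are given beside Stab2, since stabilin-2 is known from liver. Of the 14 other liver sinusoidal genes with a p, 11 had a positive sign and 0 were called, and raw p was under 0.05 for 2 positive genes, Bmp2 and Fcna, and for the negative Gpr182. Bmp2, which sinusoidal cells send to hepatocytes, had a positive sign with an unadjusted p of 0.00161 (adjusted p = 0.138; mean normalized count 18.4), and Fcna, a ficolin of liver macrophages, one of 0.0452 (mean normalized count 31.9). The mannose receptor gene Mrc1 was at 0.02 ± 0.47 (SE). Of the 23 hepatocyte genes with a p, 22 had a positive sign, 7 of them had a raw p under 0.05 and 1, Serpina1d, was called (adjusted p = 0.0312). Over all genes with a p, 54.8% had a positive sign and 2.70% had a raw p under 0.05 in each direction. Of all genes with an adjusted p, 0.264% were called as higher. Reads of Serpina1d may come from its close paralogs, so that gene is uncertain. The median reconstructed value of hepatocyte genes was 1.44 over 15, and Apoa1, an apolipoprotein, was at 2.20 ± 0.80 (SE). Their summed mean normalized count was 13911, from 3.58 to 3336 per gene. The part of these genes in the Stab2 result was not tested.

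Macrophage markers, which bear on Stab1 and Lyve1, had 15 positive signs of 19, 0 called and 1 with a raw p under 0.05, with mean normalized counts from 2.24 to 816.8 and a sum of 2642. The smallest DESeq2 p of these were 0.0211 for Mpeg1, a pore-forming protein, and 0.18 for Aif1, a microglia and macrophage protein. Their part in the Stab1 and Lyve1 values was not tested. The macrophage receptor gene Csf1r was at 0.37 ± 0.56 (SE) and Adgre1, which encodes F4/80, at 0.09 ± 1.15 (SE). Pericyte and smooth muscle genes had 13 positive signs of 14 and a median of 0.81, with Smtn, a contractile protein, at 1.05 ± 0.44 (SE; unadjusted p = 0.0183), Anpep at 0.77 ± 0.40 (SE) and 0 called. Blood lists held 8 positive signs of 10 in erythroid genes, where the transcription factor gene Gata1 was called (adjusted p = 0.0236), 7 of 9 in lymphocyte genes, led by Ltb without a call (adjusted p = 0.0948), and 2 of 4 in platelet genes (Pf4 and Itga2b), where Selp, of negative sign, and Itga2b had the smallest p. Cd8a followed Ltb among lymphocyte genes (unadjusted p = 0.122). Mesothelial genes had 3 positive signs of 7 and no call, with Upk3b at 0.45 ± 0.39 (SE) and Wt1 at -0.26 ± 0.51 (SE). Mesenchyme genes had 19 positive signs of 21 and a median of 0.40, with none called. Of these, 5 had a raw p under 0.05, all positive, led by Col3a1 at 0.63 ± 0.20 (SE) and Vim at 0.65 ± 0.23 (SE). Pan-epithelial genes had one of -0.56 over 14, with 0 of 15 signs positive and Krt18, a keratin, called as lower (adjusted p = 0.00315). Relative to the median of the mesenchyme genes, the median of all endothelial genes was -0.14, and relative to the pan-epithelial genes it was 0.82. The sign of the endothelial median thus depended on the tissue compartment it was set against.

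**Figure D4:**
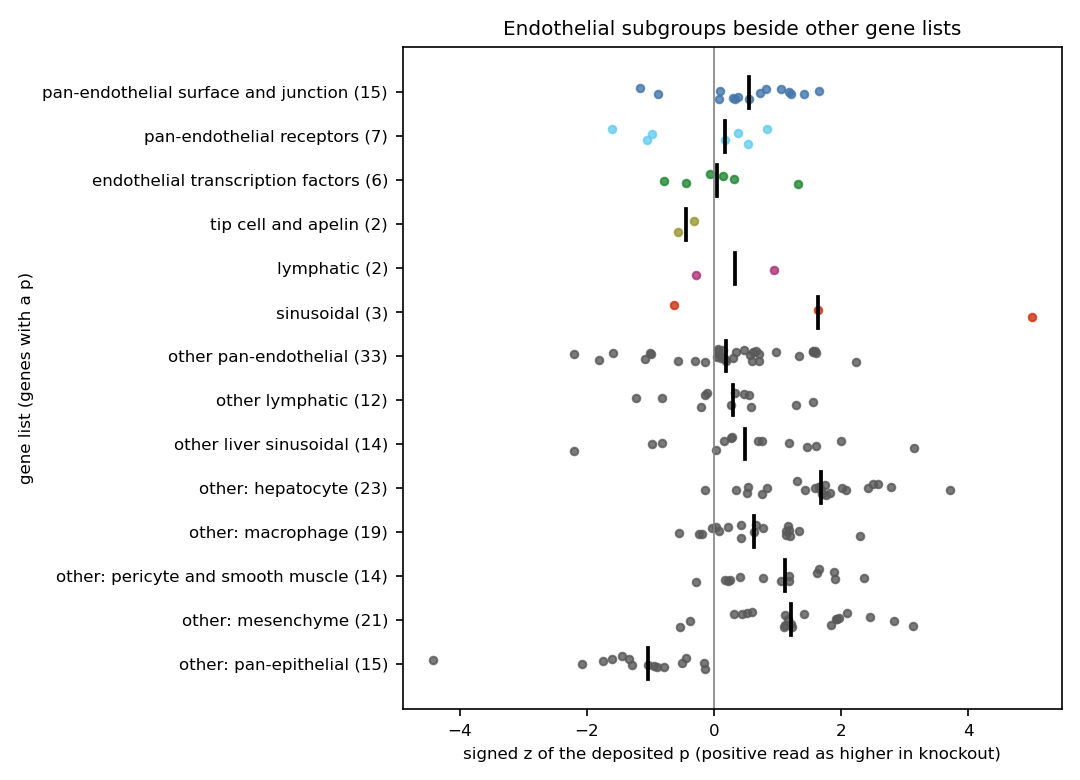
Signed z of the deposited p (x axis, positive read as higher in knockout) for each gene with a p, by list (number of genes in brackets), with black bars at the median. Hepatocyte genes have the highest median of the non-endothelial lists at 1.69 and pan-epithelial genes the lowest at -1.04, while the pan-endothelial subgroups lie between 0.04 and 0.55 and the 3 sinusoidal genes range from Stab1 at -0.63 to Stab2 at 5.01.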

How the data were processed

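RNA from 3 knockout and 3 control samples, grouped by their titles, was cleared of ribosomal RNA before stranded library preparation, per the labels' protocols. Trimmomatic, Salmon and DESeq2 with GRCm38 (mm10) are named in the submitters' processing notes, with versions, annotation and filters not given in the sources used here. Gene results come as 1 table that the authors deposited. Its mean normalized count is a signal that the authors averaged over all libraries. Log2 fold changes were deposited with an error; from the values, both were read as shrunken, the error as a posterior SD. A p-value was deposited for 14386 genes and an adjusted one for 12108. No gene was tested again, since the planned test of counts needs values per library.

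Unshrunken values were computed in Python 3.11.15 with numpy 2.4.6, pandas 2.3.3 and scipy 1.17.1, assuming a Cauchy prior and a quadratic likelihood. The prior scale was set to 0.3102, where reconstructed z came closest to the deposited p-values. Values are used where the reconstructed z lay within 0.1 of that of the deposited p, as for 84.4% of genes with a p and 31 of 35 endothelial genes; the arithmetic was tested on simulated data. SEs and intervals carry the error of the authors' model only. Members and lists were chosen with earlier results of these data known; no list was given a test. The sinusoidal and lymphatic genes, genes with a p under 0.05, the 8 members with the highest mean counts and, of each other list, its called genes or otherwise the 2 with the smallest p were named, with markers added after their values were seen (Mrc1, Csf1r, Adgre1, Fcna, Apoa1 and the genes beside Stab2). Genes that another list shares with the 40 were left out of that list. Single-cell data mentioned by the series are not analysed here.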

Additional observations from a re-analysis of the deposited data

How the results depend on the processing

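The call of Stab2 held under every alternative that gives it a p. The adjusted p was 0.000305 when adjusted over all genes with a p. It was from 0.000105 to 0.000321 when fold changes were set against pan-epithelial, mesenchyme or all genes. These alternatives could hardly have undone the call, since they change only the genes adjusted over or add a small constant. They do not test the spread between libraries. Without Stab2 the number of called endothelial genes was 0. Above a minimum mean count of 100 the number at a raw p under 0.05 was also 0, because Stab2 has fewer counts. Set against pan-epithelial genes that number was 5, all higher (Stab2, Cd34, Clec14a, Lyve1 and Ptprb), while set against mesenchyme genes it was 1. Over all genes the pan-epithelial scaling called 186 of 12108 at an adjusted p under 0.05, 148 of them higher, against 90 and 32 without it. The share of all genes at a raw p under 0.05 is not given for that scaling. The 5 can therefore not be read as particular to endothelial genes. The pan-epithelial scaling adds a constant of 0.56 to every gene. Stab1 turned to 0.24 when set against pan-epithelial genes, which follows from the same constant.

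The sinusoidal median of 0.31 rests on Stab1 and Lyve1. It was -0.32 with Lyve1 counted as lymphatic, 0.87 set against pan-epithelial genes, -0.09 set against mesenchyme genes, 0.94 with Stab2 at its deposited value and 0.93 with sizes taken from the p and the shrunken value; the last 2 alternatives were chosen after seeing the data. The sinusoidal median less the pan-endothelial one, 0.05, became -0.58 with Lyve1 as lymphatic, 0.68 with Stab2 at its deposited value and 0.60 with sizes taken from the p, so its sign depended on the setting. Set against mesenchyme genes, the medians of receptor, transcription factor and lymphatic genes also turned negative, at -0.12, -0.29 and -0.03. A prior scale 20% larger kept every sign of the subgroup medians but shrank them, to 0.07 for surface and junction genes and 0.19 for sinusoidal genes; a scale 20% smaller gave a value for Lyve1 alone of the single genes and no medians. Fcgr2b as a sinusoidal gene could not be run, nor could leaving out a replicate, DESeq2 against edgeR or other size factors. No paired analysis was possible because the table holds no values per library.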

Other observations

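Stab2 shares its pattern with a small set of scarce genes, named after their values were seen. A log2 fold change over 8 was given to 11 genes by the authors, and one under -8 to 0 genes. Of the 11, 10 had a mean normalized count under 60, the lowest being 29.1, and 10 had no reconstructed size; Scn8a, a sodium channel gene with a mean normalized count of 172.5, was the exception to both. Several are enzymes or secreted proteins known from liver: Cyp2c68 (a cytochrome P450) at 8.59 ± 3.34 (posterior SD), Hgfac (the protease that activates hepatocyte growth factor) at 8.57 ± 3.46, Rdh7 (a retinol dehydrogenase) at 8.14 ± 3.52 and Ugt1a7c (a glucuronosyltransferase) at 8.09 ± 3.41, with adjusted p values of 0.00479, 0.00810, 0.0160 and 0.0122 in the authors' deposited table. The others have no such link stated here. Besides Scn8a they are Fam120c at 9.06 ± 3.24, Gm45916 at 9.01 ± 3.66 and Trim62 at 8.51 ± 3.36. Gm2663 at 8.44 ± 3.35 and Rhbdf2 at 8.15 ± 3.51 complete the 11. The share of liver genes over all genes was not counted, and a link of the 11 to liver was not tested. Whether these genes are high in the same library as Stab2 cannot be read from the table.

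Bmp2, a liver sinusoidal gene, had a small p beside a deposited size close to 0. Its unadjusted p was 0.00161, and its deposited log2 fold change was 0.03 ± 0.22 (posterior SD), whereas that of Stab2 was 9.53. Both are shrunken values of genes without a reconstructed size, so they do not compare how large the differences were. The level of Kdr, 5.68 mean normalized counts per kb, is low beside 116.0 for Cdh5 and 25.2 for Flt1.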
